A study of Mus musculus with 12 samples.

Results

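The genes described here encode the mitochondrial ribosomal proteins of the mouse, taken as every gene whose symbol is Mrpl or Mrps followed by a number and at most 1 letter. Of the 23378 genes that could be joined across the 12 libraries, 77 met that rule, 48 with an Mrpl name and 29 with an Mrps name. RNA had been sequenced from bone marrow progenitors of C57BL/6 mice in 4 groups of 3 libraries. Enhancer-null mice carried the genotype Cebpa +42kb enhancer -/-, which lacks both copies of the element of that name. Their reference was wild type for the same element (Cebpa +42kb enhancer WT). From each genotype came common myeloid progenitors (CMP) and LSK cells, a fraction without lineage markers but with Sca-1 and Kit on the surface, which holds the stem cells. No treatment, transgene or Cre is named in the labels, and ages were not given. Each library keeps its labelled number here: enhancer-null libraries are 1, 2 and 7, wild-type libraries 1, 6 and 8. The labels do not say that libraries of a group came from separate animals, so p-values measure only the spread between these libraries.

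Mitochondrial ribosomes translate the few proteins that mitochondrial DNA encodes, all of them subunits of the respiratory chain and of ATP synthase. Their ribosomal RNA comes from the mitochondrial genome, whereas every protein of the particle is encoded in the nucleus, translated in the cytosol and imported. The large subunit carries the peptidyl transferase centre and the exit tunnel, and the small subunit holds the messenger RNA and the decoding site. Part of the proteins descend from bacterial ribosomal proteins, and the rest were acquired in mitochondria. Blood stem cells are known to rely largely on glycolysis, and mitochondrial respiration is needed as they differentiate.

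Counts assigned to genes ran from 6170491 to 49149674 per library, and 3 counts corresponded to 0.0612 to 0.487 CPM, the unit used here for counts scaled to the size of the library. By Xist and Y-linked genes, male libraries were enhancer-null 1 and 2 and wild-type 1, and the rest were female, so the genotypes were not balanced for sex. Cebpa, the targeted gene, had 0, 3 and 0 counts in enhancer-null CMP, against 544, 270 and 463 in wild-type CMP, and 1, 0 and 15 counts in enhancer-null LSK, against 226, 118 and 39 in wild-type LSK. Ly6a, which encodes Sca-1, stood at 135 to 196 CPM in LSK libraries, while its highest value in CMP libraries was 12.9 CPM. Kit was present in every library. Hlf, a stem cell transcription factor, was at 29.3, 49.3 and 111 CPM in enhancer-null LSK, against 432, 390 and 485 CPM in wild-type LSK. Mpo, the granule enzyme of myeloid progenitors, was at 1769, 2287 and 1201 CPM in enhancer-null LSK, against 443, 307 and 338 CPM in wild-type LSK. Levels of these 2 markers thus differed between genotypes within the LSK gate, but their lists were split. Of 10 LSK markers 7 had negative and 3 positive fold changes in enhancer-null against wild-type LSK, and 0 passed edgeR's test. Of 6 CMP markers 4 had negative and 2 positive fold changes, and Mpo was the 1 that passed.

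All 77 genes had counts above 0 in every library and all passed the filter on low counts in every comparison. The lowest single count was 2, for Mrps11 in wild-type LSK 6. By known function 50 of the 77 belong to the large subunit, among them Mrps30 and Mrps18a in spite of their names, and 26 to the small subunit. Mrps36 belongs to neither, being now known as a subunit of the 2-oxoglutarate dehydrogenase complex. It met the naming rule and was kept.

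Levels of different members were compared as CPM per kb of annotated exon, averaged over the 12 libraries. The 5 most abundant all have bacterial relatives. Mrpl34 stood first at 117 CPM per kb, followed by Mrpl18 at 105, Mrpl28 at 102, Mrpl12 at 87.6 and Mrpl36 at 80.9 CPM per kb. The pooled coefficient of variation within groups was 22.7% for Mrpl34, 20.1% for Mrpl18 and 17.1% for Mrpl28, so these 3 did not differ beyond their spread. Their order was not the same in every group: Mrpl28 was highest of the 3 in wild-type CMP (151 CPM per kb, against 135 for Mrpl34) and in wild-type LSK (87.3 CPM per kb, against 79.5 for Mrpl34), with Mrpl18 between them, and Mrpl34 was highest in both enhancer-null groups. Mrpl54, a large-subunit protein acquired in mitochondria, came next at 74.4 CPM per kb. Mrps21 at 63.7, Mrps33 at 58.4, Mrps28 at 58.3 and Mrpl2, which lies close to the catalytic centre, at 53.2 CPM per kb completed the first 10. Neighbours in this stretch again lay within the spread of each other, with coefficients of 22.5% for Mrps21 and 18% for Mrps33. At the other end were Mrps35 at 4.71, Mrpl47 at 4.93, Mrps10 at 6.17, Mrpl48 at 6.26 and Mrpl13 at 6.61 CPM per kb. The exons annotated for these 5 genes sum to between 4419 bp for Mrpl47 and 8631 bp for Mrps35, against a median of 2255 bp over the 77 genes, and the annotation that the authors counted with is not given. The rank of a gene with long annotated exons therefore depends on whether those exons were all transcribed and counted in these cells, which was not tested.

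**Figure D1:**
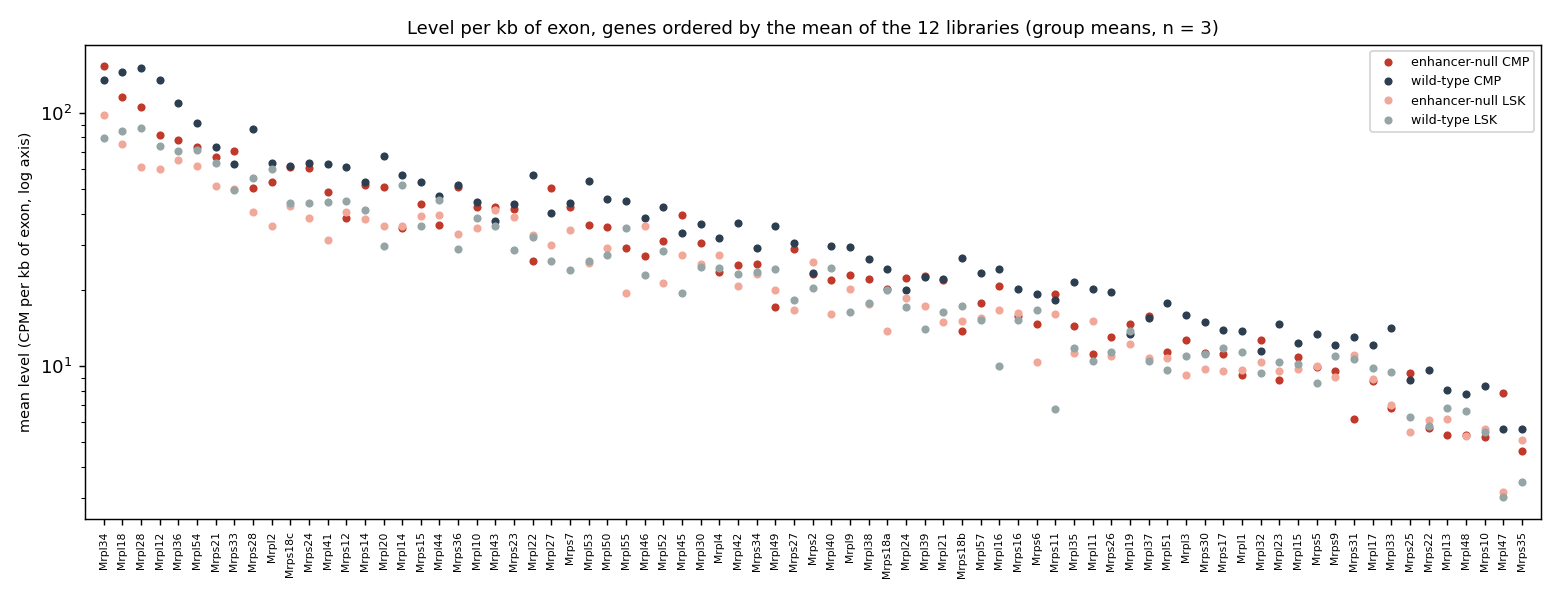
Mean level of each of the 77 genes per kb of annotated exon in the 4 groups (log axis, CPM per kb; points are means of 3 libraries), ordered by the mean of all 12 libraries. Levels run from 117 CPM per kb for Mrpl34 to 4.71 CPM per kb for Mrps35, and the wild-type CMP point is the highest of the 4 for most genes.

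Added up and scaled by TMM, the 77 genes gave a level that separated the 4 groups. The sum was 4668, 4923 and 4858 CPM in enhancer-null CMP 1, 2 and 7, against 6604, 5622 and 5724 CPM in wild-type CMP 1, 6 and 8. In LSK it was 3933, 3991 and 4031 CPM in enhancer-null 1, 2 and 7, against 4076, 4130 and 4175 CPM in wild-type 1, 6 and 8. No library overlapped with another group, and wild-type CMP 1 was the highest of the 12. The group means were 4816 ± 133 CPM in enhancer-null CMP and 5983 ± 540 CPM in wild-type CMP, a ratio of 0.805, and 3985 ± 49.7 CPM in enhancer-null LSK and 4127 ± 49.9 CPM in wild-type LSK, a ratio of 0.965 (SD, n = 3 each). Between cell types the ratio of CMP to LSK was 1.45 in the wild type and 1.21 in the enhancer-null mice. Scaling by DESeq2 size factors gave 0.799, 0.966, 1.43 and 1.18 for the same ratios. As shares of all gene counts, the members took 0.448% to 0.497% in enhancer-null CMP, 0.562% to 0.642% in wild-type CMP, 0.402% to 0.414% in LSK of enhancer-null mice and 0.4% to 0.433% in LSK of the wild type, so without such scaling the LSK groups overlapped. In bulk samples such as these, fewer cells of a type and less RNA per cell cannot be told apart. No test is given for the sum, because the genes were chosen with results of these libraries known.

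**Figure D2:**
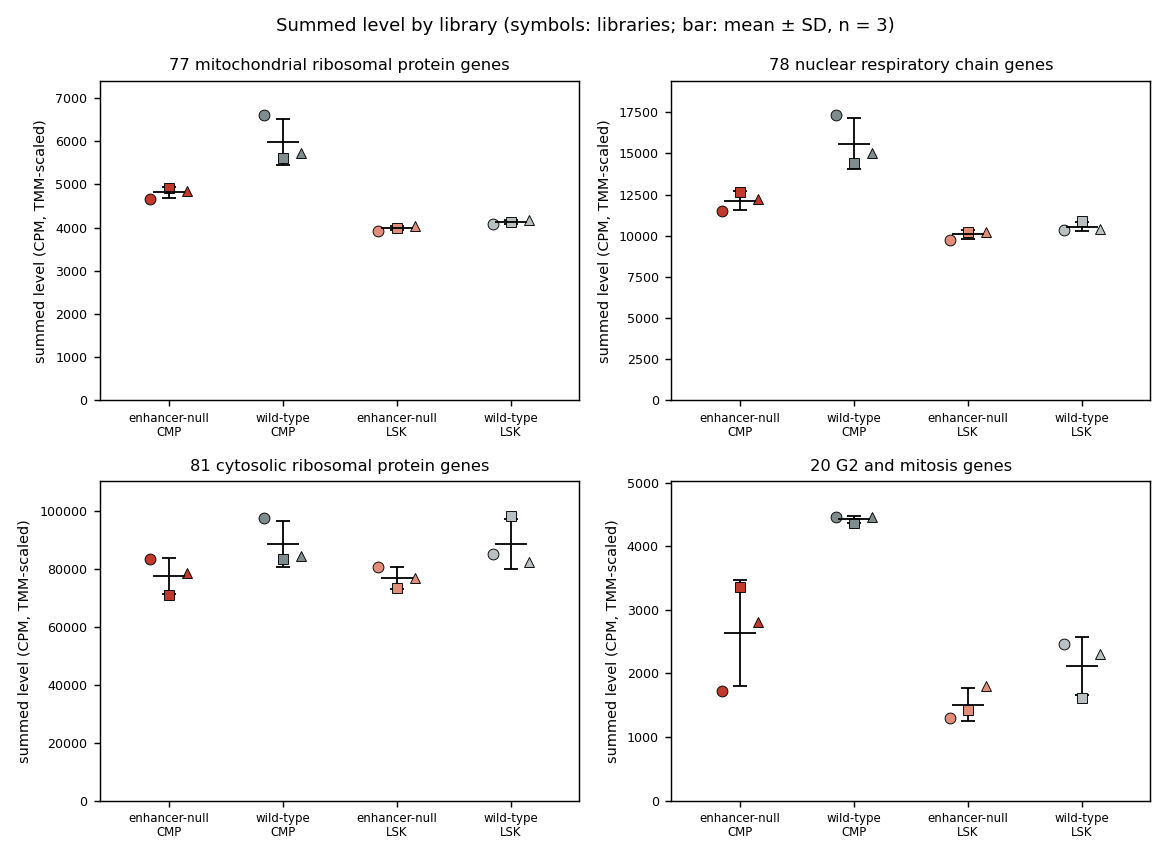
Summed level (CPM) per library of the 77 mitochondrial ribosomal protein genes and of 3 other lists, in the 4 groups; symbols are single libraries in the order of their numbers, bars are mean ± SD (n = 3), and each axis starts at 0. The member sum is 4668 to 4923 in enhancer-null CMP, 5622 to 6604 in wild-type CMP, 3933 to 4031 in LSK of enhancer-null mice and 4076 to 4175 CPM in LSK of the wild type.

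The first question was how the members stood in CMP that lack the enhancer. Most had somewhat lower mean levels in the enhancer-null cells, and no single gene passed edgeR's test after adjustment over all genes. Log2 fold changes were below 0 for 64 of the 77 and above 0 for 13, where 51.2% of all genes tested were below and 48.8% above 0. Their median was −0.35, against −0.02 over all 11719 genes tested, and they ran from −1.12 for Mrpl22 to 0.46 for Mrpl47. By edgeR 0 of 77 were higher and 0 lower at an adjusted p below 0.05, where 0.469% of all genes were called higher and 0.111% lower. At an unadjusted p below 0.05 stood 5 members, a smaller share than the 12.6% of all genes, while DESeq2 called 2 lower, Mrpl33 and Mrpl12, where it called 1.91% of all genes lower and 3.45% higher. The enhancer-null and wild-type libraries did not overlap for 28 members, each lower in the enhancer-null cells, and for 0 members in the other direction. Over all genes such separation was seen in 12.5% towards lower and 11.1% towards higher values. The lean was not particular to the members. Fold changes were below 0 for 68 of 76 nuclear respiratory chain genes and 72 of 77 cytosolic ribosomal protein genes. Of these lists 32 and 19 genes were separated towards lower and 0 towards higher values. Genes that maintain mitochondrial DNA and RNA leaned the other way, with 6 above and 3 below 0.

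Mrpl33, a small protein of the large subunit with a bacterial L33 relative (ENSMUSG00000106918.3, chromosome 5, 31596935 to 31664384, plus strand, mm10), had 51.3, 54.8 and 44.2 CPM in enhancer-null CMP 1, 2 and 7, against 129, 83.8 and 98 CPM in wild-type CMP 1, 6 and 8. Every enhancer-null library lay under every wild-type library. The log2 fold change was −1.05 (SE 0.28, adjusted p = 0.181 by edgeR, 0.0296 by DESeq2). In LSK Mrpl33 stood at 52.4, 52.7 and 49.8 CPM in the enhancer-null libraries, against 65.8, 69.3 and 72.8 CPM in the wild type. There, too, the groups did not overlap, with a log2 fold change of −0.39 (SE 0.25, adjusted p = 0.742).

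Mrpl12, which forms the flexible stalk that contacts the translation factors (ENSMUSG00000039640.7, chromosome 11, 120484613 to 120489065, plus strand), had 141, 129 and 106 CPM in enhancer-null CMP, against 217, 198 and 206 CPM in wild-type CMP. The wild-type libraries lay close together and all above the enhancer-null ones. The log2 fold change was −0.72 (SE 0.19, adjusted p = 0.181 by edgeR, 0.0325 by DESeq2). Over the alternative fits its adjusted p ran from 0.0325 to 0.583, and that of Mrpl33 from 0.0296 to 0.627.

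The other members with the smallest p also belong to the large subunit. Mrpl42, acquired in mitochondria, had 93.4, 98.6 and 84.9 CPM in enhancer-null CMP, against 152, 124 and 130 CPM in wild-type CMP. Mrpl49, also specific to mitochondria, had 20, 48 and 27.9 CPM in enhancer-null CMP, against 59.6, 59.8 and 82.4 CPM in wild-type CMP. Mrpl28 had 167, 116 and 158 CPM in enhancer-null CMP, against 213, 185 and 229 CPM in wild-type CMP. For all 3 genes the groups did not overlap, yet the adjusted p was 0.335 for Mrpl42, 0.34 for Mrpl49 and 0.378 for Mrpl28. The exons of Mrpl49 overlap those of Syvn1, so reads of the 2 genes may not be told apart without strand. Mrpl22, whose bacterial relative lines the exit tunnel, had the most negative fold change, which was −0.66 without enhancer-null CMP 1 and −2.17 without enhancer-null CMP 2: it was at 4.89 CPM in enhancer-null CMP 1 but at 51.9 and 19.9 CPM in enhancer-null 2 and 7, against 56.1, 52.7 and 58.4 CPM in wild-type CMP. Mrpl47, at the positive end, was at 52.9 CPM in enhancer-null CMP 1 and at 26.5 and 24.4 CPM in the other two, against 31.5, 28.3 and 15.2 CPM in wild-type CMP, so these groups overlapped, and without enhancer-null CMP 1 its log2 fold change was −0.00.

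Genes of other cell types and of the cell cycle differed between the same libraries. All 7 monocyte and macrophage markers had negative fold changes in enhancer-null CMP, 3 of them past edgeR's test (Irf8, Ms4a6c and F13a1), and their summed level was 156 to 296 CPM, against 1424 to 1691 CPM in wild-type CMP. Of 5 mast cell and basophil markers tested, 3 had positive and 2 negative fold changes, and the list summed to 1312 to 1745 CPM in enhancer-null CMP, against 94.8 to 286 CPM in wild-type CMP. Most of the sum came from Cpa3 and Gata2, while Prss34, a basophil protease, was at 0 CPM in all 3 enhancer-null CMP libraries, against 112, 0.392 and 0 CPM in wild-type CMP. Cpa3, the mast cell carboxypeptidase, was the 1 marker of this list that passed the test (log2 fold change 4.74, SE 0.37, adjusted p = 0.00424). Late neutrophil markers summed to 3.84 to 27.4 CPM in enhancer-null CMP, against 2079, 248 and 26.5 CPM in wild-type CMP 1, 6 and 8. For 20 genes of G2 and mitosis the sum was 1723, 3362 and 2804 CPM in enhancer-null CMP 1, 2 and 7, against 4451, 4357 and 4460 CPM in wild-type CMP 1, 6 and 8. Of these 20, 19 had negative fold changes (median −0.78), 0 passed edgeR's test, 11 had an unadjusted p below 0.05 (12.6% of all genes did) and DESeq2 called 5 lower (1.91% of all genes). What part these differences have in the member values was not tested. Without wild-type CMP 1 the median of the members was −0.30 and 55 were below 0. Without enhancer-null CMP 1 the median was −0.33 and 65 were below 0. The libraries that remained still differed in neutrophil markers and mitotic genes, so these fits do not test cell composition.

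In LSK the members of the enhancer-null and wild-type libraries stood close together. Log2 fold changes were below 0 for 42 and above 0 for 35 genes, where 50.7% of all genes were below 0, and the median was −0.02, against −0.01 over all 11617 genes. By edgeR 0 members were called, 0 had an unadjusted p below 0.05 (7.9% of all genes did), and DESeq2 called 0. Over all genes edgeR called 0.0775% higher and 0.0258% lower, and DESeq2 1.15% higher and 1.16% lower. The groups did not overlap for 5 members higher and 8 lower in the enhancer-null cells, where 8.49% and 10.6% of all genes were separated in these directions, so the shares of the members were near the background.

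Mrps7, which in bacteria starts assembly of the head of the small subunit (ENSMUSG00000046756.10, chromosome 11, 115603925 to 115608036, plus strand), had the smallest p in LSK. It was at 76.5, 70.8 and 67.2 CPM in enhancer-null LSK, against 53.5, 47.7 and 47.7 CPM in wild-type LSK. All 3 enhancer-null libraries were higher, with a log2 fold change of 0.56 (SE 0.25, adjusted p = 0.643). Its exons overlap those of Gga3 and Mif4gd. Mrpl2 had 47, 28 and 50.3 CPM in enhancer-null LSK, against 44.1, 89.8 and 77.7 CPM in wild-type LSK. Mrps18a had 47.8, 55.7 and 49.7 CPM in enhancer-null LSK, against 54.1, 91.3 and 76.2 CPM in wild-type LSK. Mrpl28 had 76.3, 82.3 and 95.4 CPM in enhancer-null LSK, against 115, 154 and 92.8 CPM in wild-type LSK. The groups overlapped for all 3 genes, and the adjusted p was 0.693 for Mrpl2, 0.695 for Mrpl28 and 0.711 for Mrps18a. Mrpl55 had the most negative fold change (−0.82, SE 0.58, and −0.29 without wild-type LSK 6), with 11.9, 20.7 and 27.2 CPM in enhancer-null LSK, against 30.5, 58.9 and 18.4 CPM in wild-type LSK. Mrps11 had the most positive one (1.27, SE 1.24, and 0.67 without wild-type LSK 6): it was at 34.5, 41.9 and 28.8 CPM in enhancer-null LSK, against 25.8, 0.14 and 18.4 CPM in wild-type LSK 1, 6 and 8.

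The step between cell types in the wild type showed a common direction. Every one of the 77 genes had a log2 fold change of CMP over LSK at or above 0, where 49.7% of all genes were above 0, and the median was 0.61, against −0.01 over all 12026 genes. They ran from 0.00 for Mrpl19 to 1.47 for Mrps11. Mrpl19 is the gene whose sign turned: its fold change was −0.03 with DESeq2 size factors, and the count above 0 was then 76. Leaving out single libraries left 73 to 77 genes above 0. In 36 of the 77 genes every CMP library was above every LSK library, and 0 were separated the other way, where 16.4% and 17% of all genes were. Of 76 nuclear respiratory chain genes 69 were above 0, with 45 separated towards CMP and 0 the other way. Of 77 cytosolic ribosomal protein genes 41 were above 0, with 7 separated towards CMP and 3 the other way. Single genes seldom passed the test: edgeR called 1 member higher, Mrpl20, and 0 lower, where it called 2.15% of all genes higher and 2.06% lower. At an unadjusted p below 0.05 stood 22 members, where 20.5% of all genes did. DESeq2 called 9 members higher, where it called 6.03% of all genes higher and 7.32% lower.

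Mrpl20, a large-subunit protein whose bacterial relative acts early in assembly of the subunit (ENSMUSG00000029066.12, chromosome 4, 155802878 to 155809975, plus strand), was at 131, 109 and 97.6 CPM in wild-type CMP 1, 6 and 8, against 51.7, 44.2 and 53.1 CPM in wild-type LSK. The groups lay far apart, with a log2 fold change of 1.22 (SE 0.23, adjusted p = 0.0318). The direction held in all alternative fits, with fold changes of 1.06 to 1.32 and adjusted p of 0.000177 to 0.163. The call was lost with sex as a covariate (adjusted p = 0.0599), with the replicate number as a block (0.0989) and when any of wild-type CMP 1, 6 or 8 or wild-type LSK 1 or 8 was left out (0.163, 0.146, 0.0819, 0.0914 and 0.0782). Without wild-type LSK 6 it remained, and 4 further members passed, Mrpl12, Mrpl18, Mrpl28 and Mrpl36, where 3.89% of all genes were called higher and 2.9% lower. Without the filter on low counts 2 members passed (1.62% of all genes higher, 2.11% lower), and so did 2 with all 12 libraries in 1 fit (1.85% higher, 1.94% lower), in each case Mrpl20 and Mrpl12. With DESeq2 size factors Mrpl20 alone passed (1.88% higher, 2.12% lower).

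The 8 members next in order of p, named after their values were seen, were likewise higher in CMP in every library. Mrpl18, whose bacterial relative helps to anchor the small ribosomal RNA of the large subunit (ENSMUSG00000057388.9, chromosome 17, 12911349 to 12916345, minus strand), was at 222, 176 and 211 CPM in wild-type CMP, against 119, 134 and 102 CPM in wild-type LSK. Its exons overlap those of Tcp1. Mrpl12 was at 217, 198 and 206 CPM in wild-type CMP, against 95.9, 146 and 96.4 CPM in wild-type LSK, and Mrps7 at 94.3, 99.8 and 78.5 CPM in wild-type CMP, against 53.5, 47.7 and 47.7 CPM in wild-type LSK. Log2 fold changes were 0.82 for Mrpl18, 0.91 for Mrpl12, 0.91 for Mrps7, 0.90 for Mrpl35, 0.83 for Mrpl28, 0.92 for Mrpl51, 0.89 for Mrps36 and 0.81 for Mrpl34. Adjusted p ran from 0.0602 for Mrpl18 to 0.111 for Mrpl34 by edgeR, and from 0.00517 to 0.0423 by DESeq2. With Mrpl20 these 8 are the 9 members that DESeq2 called, where it called 6.03% of all genes higher. They were named with their values known and the counts are the same, so the DESeq2 calls are not separate support. Mrps36, the dehydrogenase subunit, thus lay inside the range of the ribosomal proteins, at 74.5, 62.5 and 61.9 CPM in wild-type CMP, against 35.2, 38.3 and 36.9 CPM in wild-type LSK.

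Mrpl19, at the low end, was at 69.5, 80.6 and 68.6 CPM in wild-type CMP, against 55, 94.9 and 74.6 CPM in wild-type LSK. These groups overlapped. Mrps11, at the high end, again had 0.14 CPM in wild-type LSK 6, without which its fold change was 0.90, with 49.6, 42.3 and 27 CPM in wild-type CMP, against 25.8 and 18.4 CPM in the other wild-type LSK libraries. Its fold change had an SE of 1.22 and did not pass (adjusted p = 0.563). Without wild-type CMP 1 the median of the members was 0.47, and without wild-type CMP 6, whose counts were listed under a smaller set of gene symbols, it was 0.59.

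**Figure D3:**
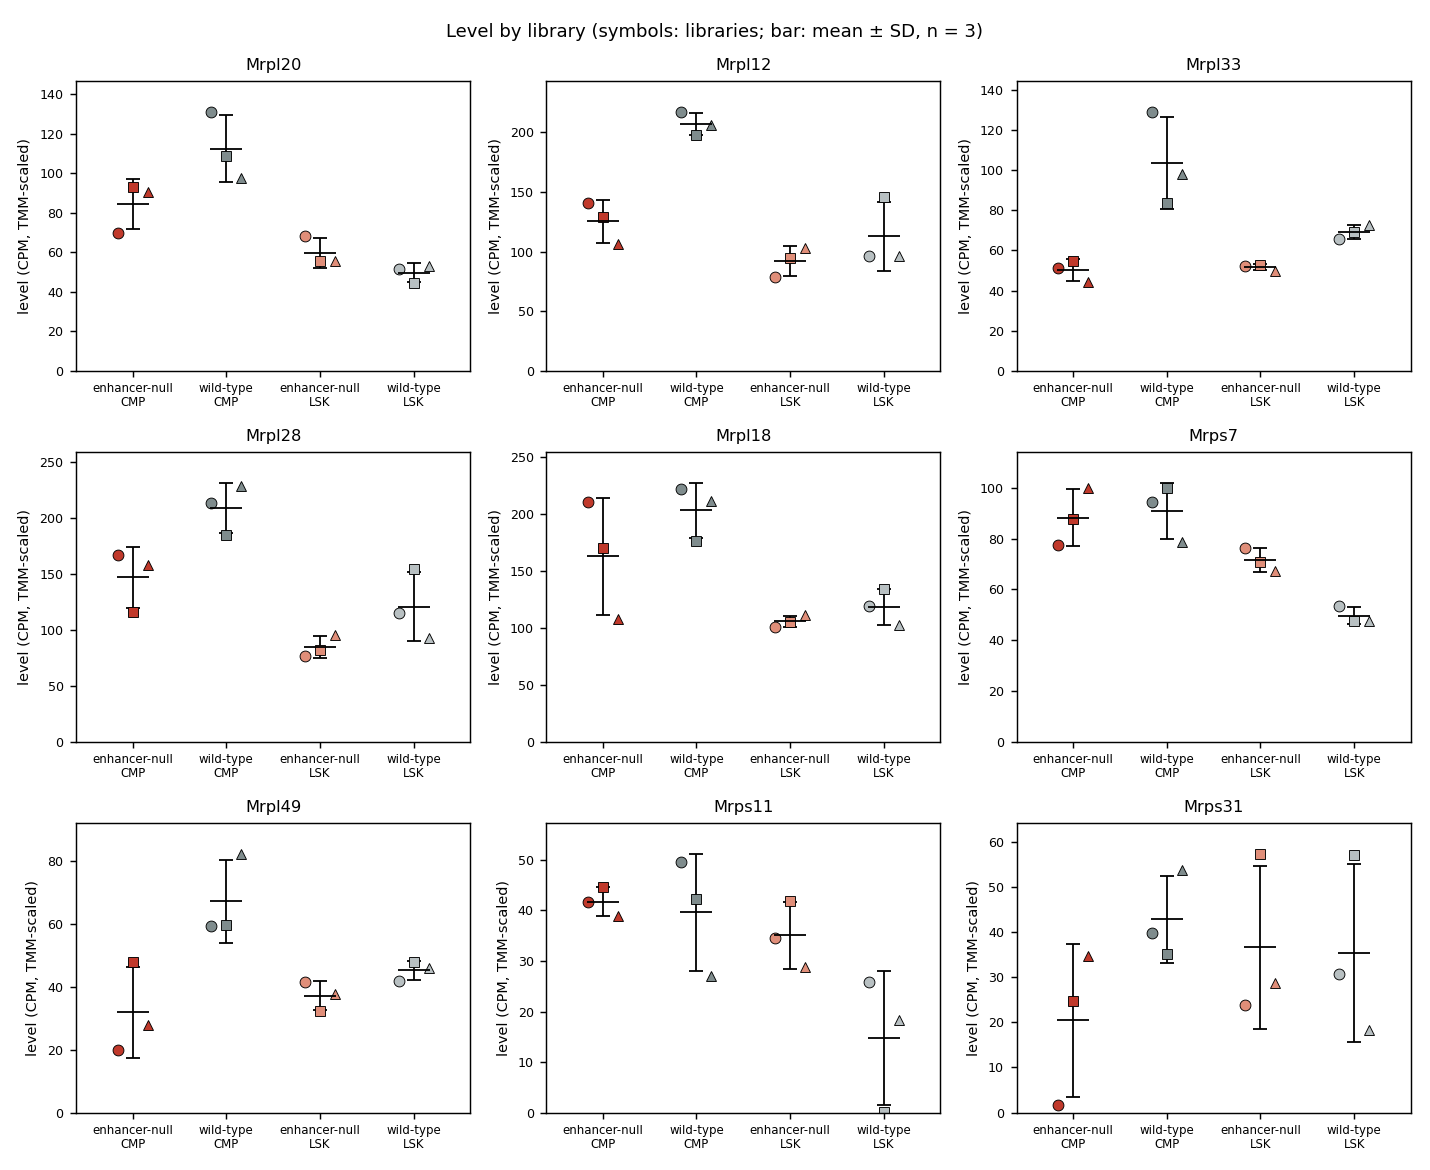
Level (CPM) of 9 members in each library of the 4 groups; symbols are single libraries in the order of their numbers, bars are mean ± SD (n = 3), and each axis starts at 0. Mrpl20 lies between 97.6 and 131 CPM in wild-type CMP and between 44.2 and 53.1 CPM in wild-type LSK, and Mrps11 and Mrps31 each have 1 library near 0.

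In the enhancer-null mice the values of the same step lay nearer to 0, and the difference itself is tested below. Log2 fold changes of CMP over LSK were above 0 for 55 and below 0 for 22 members, where 49.5% of all genes were above 0, and the median was 0.24, against −0.01 over all 11263 genes. No gene of any kind was called by edgeR in this comparison (0% of all genes), 1 member had an unadjusted p below 0.05, where 6.92% of all genes did, and DESeq2 called 0 members (0.923% of all genes higher, 0.897% lower). CMP and LSK libraries did not overlap for 20 members, each higher in CMP, and for 0 in the other direction, where 8.39% and 8.48% of all genes were separated. Mrpl28 had the smallest p, with 167, 116 and 158 CPM in enhancer-null CMP, against 76.3, 82.3 and 95.4 CPM in enhancer-null LSK (log2 fold change 0.77, SE 0.24, adjusted p = 0.561). Mrps25 was at 72.4, 51.9 and 60.5 CPM in enhancer-null CMP, against 38.1, 34.3 and 35.9 CPM in enhancer-null LSK, and its exons overlap those of Nr2c2. Mrpl34 was at 127, 69.4 and 82.5 CPM in enhancer-null CMP, against 56.9, 54.9 and 67.3 CPM in enhancer-null LSK. For these 3 genes all CMP libraries were above all LSK libraries.

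Mrpl18 was at 210, 170 and 108 CPM in enhancer-null CMP, against 101, 105 and 111 CPM in enhancer-null LSK, where enhancer-null CMP 7 lay among the LSK values. Mrpl47 had the most positive fold change (1.26, SE 0.58), with 52.9, 26.5 and 24.4 CPM in enhancer-null CMP, against 11.2, 14.7 and 16.4 CPM in enhancer-null LSK. Exons of Actl6a and Ndufb5 overlap those of Mrpl47, and whether its counts gained or lost reads by this was not tested. Mrps31, a small-subunit protein acquired in mitochondria, had the most negative one (−0.86, SE 0.95, but −0.32 without enhancer-null CMP 1 and −0.38 without enhancer-null LSK 2): it was at 1.75 CPM, 15 counts, in enhancer-null CMP 1 and at 24.7 and 34.8 CPM in enhancer-null CMP 2 and 7, against 23.9, 57.3 and 28.7 CPM in enhancer-null LSK.

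Whether the genotype effect differed between CMP and LSK was tested directly with all 12 libraries. The difference, CMP effect minus LSK effect, was below 0 for 57 and above 0 for 20 members, where 49.4% of all genes were below and 50.6% above 0. Its median was −0.27, against 0.01 over all 12683 genes. By edgeR 0 members passed (0.221% of all genes were called higher and 0.071% lower), 0 had an unadjusted p below 0.05, where 7.64% of all genes did, and DESeq2 called 0 (0.915% of all genes higher, 0.552% lower). Mrpl20 had the smallest p: its difference was −0.68 (SE 0.35, adjusted p = 0.698). Mrpl20 was at 70, 93 and 90.7 CPM in enhancer-null CMP, under all 3 wild-type CMP libraries, and at 68.5, 55.4 and 55.5 CPM in enhancer-null LSK, above all 3 wild-type LSK libraries. Differences were −0.81 for Mrpl51 (adjusted p = 0.728), −0.62 for Mrpl33 (0.749), −0.57 for Mrps7 (0.756) and −1.14 for Mrpl46 (0.767). At the ends were Mrpl11, a protein of the stalk base, with −1.37, and Mrpl2 with 0.50. Mrpl11 was at 6.64 CPM in enhancer-null CMP 1 and at 56.1 and 45.5 CPM in enhancer-null CMP 2 and 7, and without enhancer-null CMP 1 its difference was −0.97. Over all alternatives the differences ran from −1.84 to −0.97 for Mrpl11, from −1.66 to −0.74 for Mrpl46, lowest in size without wild-type LSK 6 and highest without wild-type LSK 8, and from 0.27 to 0.74 for Mrpl2, lowest without wild-type CMP 8 and highest without wild-type LSK 1. Without wild-type CMP 8 the median of the members was −0.42, and without wild-type LSK 8 it was −0.36. The genotype and cell type comparisons share libraries, so their values are given side by side and not as support for each other.

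**Figure D4:**
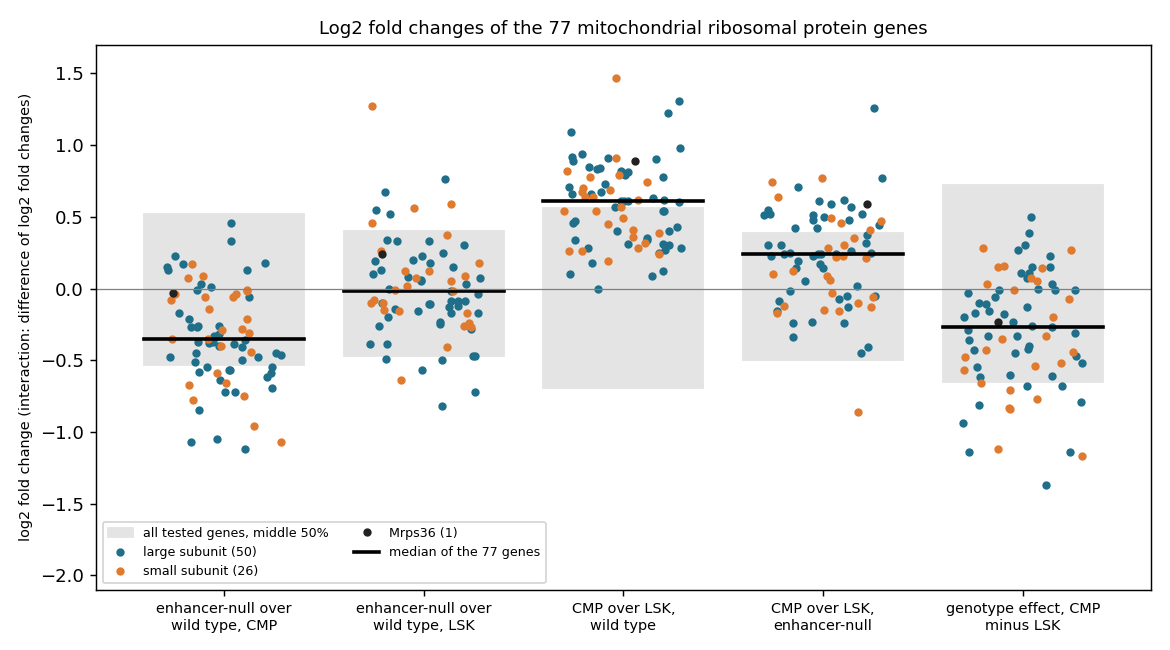
Log2 fold change of each of the 77 genes in the 4 comparisons and, at the right, the difference between the genotype effects (vertical axis, log2; points are genes coloured by subunit, black lines are medians, grey boxes span the middle 50% of all genes tested). The medians are −0.35 for genotype in CMP, −0.02 in LSK, 0.61 for the cell type step in the wild type, 0.24 in enhancer-null mice and −0.27 for the difference.

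The subunits were followed separately. The 50 large-subunit genes had a median log2 fold change of −0.39 in enhancer-null against wild-type CMP, with 40 below 0, and the 26 small-subunit genes one of −0.28, with 23 below 0. In the wild-type step the medians were 0.61 for large-subunit and 0.55 for small-subunit genes, and in the enhancer-null step 0.25 and 0.16 for the same classes. The ratio of the small-subunit to the large-subunit sum was 0.468, 0.48 and 0.512 in enhancer-null CMP, against 0.46, 0.449 and 0.442 in wild-type CMP, so the enhancer-null libraries lay above the wild-type ones without overlap. In LSK the ratio was 0.477, 0.562 and 0.48 in the enhancer-null libraries, against 0.5, 0.486 and 0.423 in the wild type, and these overlapped. Proteins with a bacterial homologue (44 genes) and proteins acquired in mitochondria (28 genes) had medians of −0.33 and −0.37 in enhancer-null against wild-type CMP, and of 0.55 and 0.62 in the wild-type step.

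Mrps18a, Mrps18b and Mrps18c descend from 1 bacterial gene, S18, and occupy different places, Mrps18a in the large and the other two in the small subunit. Mrps18a was at 95.6, 63.9 and 62.8 CPM in enhancer-null CMP, against 93.5, 82.1 and 91.6 CPM in wild-type CMP. Mrps18b was at 25.8, 45.8 and 14.8 CPM in enhancer-null CMP, against 58.7, 61.8 and 47.4 CPM in wild-type CMP. Mrps18c was at 92.8, 64.2 and 40.9 CPM in enhancer-null CMP, against 87.5, 56.9 and 55.2 CPM in wild-type CMP. Of the 3 paralogs only Mrps18b had groups that did not overlap, with a log2 fold change of −0.96 (SE 0.47, adjusted p = 0.476), and the difference between paralogs was not tested. In LSK Mrps18b was as variable, at 45.5, 18.4 and 30.9 CPM in the enhancer-null libraries, against 27.6, 63.5 and 17.1 CPM in the wild type.

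Single libraries lay far below their replicates at some members. In 3 libraries at least 1 member was under a 4th of the lowest other replicate of its group. Enhancer-null CMP 1 had 3 such genes (Mrpl11, Mrpl22 and Mrps31), enhancer-null LSK 1 had 2 (Mrps6 and Mrps27) and wild-type LSK 6 had 5 (Mrpl39, Mrpl45, Mrpl47, Mrps11 and Mrps27). Among the 7767 genes that averaged 20 CPM or more, such drops affected 8.45% in enhancer-null CMP 1, 2.12% in enhancer-null LSK 1 and 7.93% in wild-type LSK 6, and the members' shares were 3.9%, 2.6% and 6.49%. Mrpl45, which helps to attach the ribosome to the inner membrane, was for example at 64.6, 11.6 and 75 CPM in wild-type LSK 1, 6 and 8. Mrps27 was at 9.88, 44.3 and 50.5 CPM in enhancer-null LSK 1, 2 and 7, against 43.9, 6.39 and 63.9 CPM in wild-type LSK 1, 6 and 8.

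Other parts of the same machinery were counted alongside, from lists chosen with earlier results known. The 6 remaining mitoribosome proteins, such as Dap3, had a median log2 fold change of −0.32 in enhancer-null against wild-type CMP and of 0.70 in the wild-type step, where all 6 were above 0 and their libraries did not overlap. By edgeR 0 of these 6 passed in either comparison, with 1 and 5 at an unadjusted p below 0.05, and DESeq2 called 0 and 1. Over all genes 12.6% and 20.5% had an unadjusted p below 0.05 in these 2 comparisons. Mitochondrial translation factors (12 genes) had medians of −0.06 and 0.19, assembly factors (20 genes) of −0.26 and 0.41, and mitochondrial aminoacyl-tRNA synthetases (17 genes) of −0.19 and 0.33 in the same 2 comparisons. In these 3 lists 0 genes passed edgeR's test in either comparison. At an unadjusted p below 0.05 in the wild-type step were 3 translation factors, 3 assembly factors and 2 synthetases, where 20.5% of all genes were. DESeq2 called 1 higher in each list, where it called 6.03% of all genes higher. Genes that maintain mitochondrial DNA and RNA (9 genes) had medians of 0.06 and 0.35, with 0 passing by edgeR, DESeq2 or the unadjusted p. A search of the joined symbols for genes of the mitochondrial genome itself found 0, so they could not be analysed here.

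Nuclear genes of the respiratory chain, whose complexes contain the products of mitochondrial translation, had medians close to those of the members: −0.34 in enhancer-null against wild-type CMP, −0.08 in LSK, 0.56 in the wild-type step and 0.27 in the enhancer-null step. In the wild-type step 8 of 76 passed edgeR's test, all higher in CMP, where 2.15% of all genes were called higher. Among them were Atp5b (log2 fold change 0.82, SE 0.10, adjusted p = 0.0111), Atp5a1 (0.78, SE 0.11, 0.0128) and Cox6a1 (0.98, SE 0.15, 0.0182). In enhancer-null against wild-type CMP 0 of 76 passed, 23 had an unadjusted p below 0.05 (12.6% of all genes did) and DESeq2 called 4 lower (1.91% of all genes). Cytosolic ribosomal proteins had medians in the cell type step of 0.05 in the wild type and 0.00 in the enhancer-null mice, and for genotype of −0.21 in CMP and −0.20 in LSK, with 0 of 77 passing in each of these. At an unadjusted p below 0.05 were 15 in CMP and 14 in LSK for genotype, 5 in the wild-type step and 1 in the enhancer-null step. Over all genes the shares were 12.6%, 7.9%, 20.5% and 6.92%. DESeq2 called 3 lower in CMP and 3 lower in LSK for genotype (1.91% and 1.16% of all genes). It called 3 higher in the wild-type step (6.03% of all genes) and 0 in the enhancer-null step. Their sum was 83285, 70885 and 78586 CPM in enhancer-null CMP, against 97626, 83476 and 84401 CPM in wild-type CMP, and 80752, 73265 and 76695 CPM in enhancer-null LSK, against 85040, 98373 and 82201 CPM in wild-type LSK. Genes of G2 and mitosis had larger medians than the members in the cell type step, 1.17 in the wild type, where 7 of 20 passed, and 0.86 in the enhancer-null mice. Their part in the member values was not tested.

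Among 10 regulators of mitochondrial biogenesis, of which 9 were tested for genotype in CMP, 1 passed. Mycn, a proto-oncogene of the Myc family, was at 248, 189 and 510 CPM in enhancer-null CMP, against 13, 26.1 and 40.8 CPM in wild-type CMP (log2 fold change 3.57, SE 0.54, adjusted p = 0.0459). In the wild-type step Mycn fell by 2.50 on the log2 scale (SE 0.41, adjusted p = 0.0217). In LSK it was at 295, 291 and 362 CPM in the enhancer-null libraries, against 147, 149 and 168 CPM in the wild type. For genotype in LSK 0 regulators passed edgeR's test, with a smallest adjusted p of 0.0925. DESeq2 called 1 regulator higher and 0 lower there, where it called 1.15% of all genes higher and 1.16% lower. As a list the regulators had a median log2 fold change of 0.36 for genotype in CMP, with 8 above and 1 below 0. In LSK the median was 0.30, with 7 above and 2 below 0. In the enhancer-null mice Mycn averaged 316 ± 171 CPM in CMP and 316 ± 39.5 CPM in LSK (SD, n = 3 each). What part Mycn or the other regulators have in the member values was not tested. Mycn also stands on the list of LSK markers.

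In the genome the 77 genes are scattered over 17 chromosomes, with the largest number, 10, on chromosome 11. The exons of 23 members overlap those of another protein-coding gene on either strand. For these the counts of neighbours may not be told apart or shared reads may be lost, because the mode and strand setting of the counting are not given. Without them the medians of the remaining 54 were −0.36 for genotype in CMP and 0.62 for the wild-type step, and Mrpl20 remained the 1 gene called. Mrpl46 and Mrps11 lie head to head on chromosome 7. Their starts in RefSeq leave them without overlap, but in the GENCODE annotation used here they overlap each other. Leaving out pairs that, like these, overlap by more than 100 bp at their starts, a divergent protein-coding neighbour started within 1000 bp of 19 of the 77 members (24.7%), where 1308 of 11682 tested genes (11.2%) had 1. Examples are Mrpl36 with Ndufs6, a subunit of complex I, and Mrpl49 with Fau, which encodes a cytosolic ribosomal protein. The starts of Mrpl36 and Ndufs6 lie 29 bp apart, and their exons overlap by 30 bp. Those of Mrpl49 and Fau lie 59 bp apart.

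Promoter windows from 250 bases before to 50 after the start were found in RefSeq (GRCm38.p6) for 68 of the 77 members. Only the first window listed for each gene was used, so other start sites were not searched. They were searched on both strands for letters of factors known to act on genes of mitochondrial function and of housekeeping type. The NRF1 motif occurred in 13 of 68 windows (19.1%), against 10.8% of the windows of 9283 tested genes. The ETS letters CCGGAAG, which GABP (NRF2) binds, occurred in 24 (35.3%, against 18.6%), and the YY1 letters AANATGGC in 20 (29.4%, against 9.1%). At least 1 of these 3 was present in 45 windows (66.2%, against 33.3%). The SP and KLF letters GGGCGG occurred in 34 (50%, against 64.4%), the NFY letters CCAAT in 27 (39.7%, against 39%) and the E-box CACGTG in 5 (7.35%, against 10.2%). Median GC content was 58.2% in the members' windows and 60.7% in all. A match is a run of letters and does not show binding. Below are the windows of the gene called in the wild-type step, of the 2 members with the smallest p for genotype in CMP, and of Mrps11, whose window overlaps that of Mrpl46. They are written 5′ to 3′ on the strand of the gene. Capitals mark the NRF1 motif in Mrpl12, the ETS letters in Mrpl33 and, read on the other strand, the YY1 letters in Mrps11. This window of Mrpl20 held no match to NRF1, ETS or YY1. The windows are chr4:155802628-155802927 on the plus strand for Mrpl20, chr11:120484387-120484686 on the plus strand for Mrpl12, chr5:31613701-31614000 on the plus strand for Mrpl33, whose start in RefSeq lies inside the longer gene annotated by GENCODE, and chr7:78782881-78783180 on the plus strand for Mrps11.
Mrpl20: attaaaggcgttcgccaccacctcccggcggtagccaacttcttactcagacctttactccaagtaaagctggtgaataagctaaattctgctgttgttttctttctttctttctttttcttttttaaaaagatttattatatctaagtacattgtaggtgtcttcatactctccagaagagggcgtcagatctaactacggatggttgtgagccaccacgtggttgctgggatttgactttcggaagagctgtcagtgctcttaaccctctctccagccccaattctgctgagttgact
Mrpl12: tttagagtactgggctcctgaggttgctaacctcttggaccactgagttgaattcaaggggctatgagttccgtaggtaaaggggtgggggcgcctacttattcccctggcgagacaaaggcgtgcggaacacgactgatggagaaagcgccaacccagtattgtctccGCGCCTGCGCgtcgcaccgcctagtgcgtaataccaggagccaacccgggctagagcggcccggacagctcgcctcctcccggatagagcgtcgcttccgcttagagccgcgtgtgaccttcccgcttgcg
Mrpl33: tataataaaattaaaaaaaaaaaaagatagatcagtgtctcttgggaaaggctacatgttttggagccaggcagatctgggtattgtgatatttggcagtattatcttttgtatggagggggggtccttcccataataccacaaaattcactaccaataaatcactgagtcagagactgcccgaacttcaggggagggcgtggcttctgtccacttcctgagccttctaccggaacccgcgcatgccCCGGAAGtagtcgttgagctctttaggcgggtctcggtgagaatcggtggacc
Mrps11: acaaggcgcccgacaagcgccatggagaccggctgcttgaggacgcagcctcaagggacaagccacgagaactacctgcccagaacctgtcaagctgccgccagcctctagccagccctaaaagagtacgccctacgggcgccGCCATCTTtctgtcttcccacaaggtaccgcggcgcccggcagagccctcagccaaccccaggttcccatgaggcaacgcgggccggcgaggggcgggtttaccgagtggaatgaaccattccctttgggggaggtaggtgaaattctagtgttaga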

How the data were processed

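Sorted bone marrow cells had been lysed in Trizol, and a low-input amplification kit and paired-end sequencing (75 bp) followed, per the labels' protocols. The values deposited by the authors are unnormalized read counts for each gene symbol. The submitters' processing notes name TopHat2 2.0.4, TopHat, Bowtie, HTSeq and build mm10. Which annotation, counting mode and strand setting served is not given in the sources used here. Rows naming no gene took 37.2% to 46.9% of each library and stayed out.

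Symbols numbered 23456 for wild-type CMP 6 and 24420 for the other 11 libraries. Of these, 22779 were identical and 599 were linked as older names by the RefSeq table, among them Mrp63 for Mrpl57. Unjoined symbols held 0.0805% to 0.317% of gene counts. Mrpl58 is counted under its older name Ict1 and did not meet the naming rule.

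Differences were tested in R 4.3.3 with edgeR 4.0.16 (robust quasi-likelihood test, TMM scaling, default filter with a minimum count of 10) on the 2 groups compared, or on all 12 libraries for the interaction. P-values were adjusted by Benjamini-Hochberg over all genes tested, with a threshold of 0.05. SEs of log2 fold changes were taken as |log2 fold change| over √F. Levels are CPM scaled by TMM over the 12 libraries, and levels per kb use the union of exons in GENCODE M21. Alternatives were DESeq2 1.42.0, size factors of the DESeq2 kind, no filter, all libraries in 1 fit, sex as a covariate, the replicate number as a block, each library left out in turn and, chosen after seeing the data, the members without exon overlap. What is called DESeq2 size factors here was computed by edgeR with its RLE method and used in edgeR's test. No molecular identifiers are named in the labels, so depth limits cover counting error only.

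Members and lists were chosen with earlier results of these data known. For each comparison the rule for named members took those past the threshold, or otherwise the 5 with the smallest p, and both ends of the fold changes, plus the 10 highest and 5 lowest levels per kb and the S18 paralogs. Members named after their values were seen are the 8 next to Mrpl20, Mrpl36 in the wild-type step without 1 library, and those in the account of single libraries and of neighbouring genes.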

Additional observations from a re-analysis of the deposited data

How the results depend on the processing

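Of 273 recomputed summary values 257 stayed close to the reported one and 16 moved. A count was taken as close if equal or within a ratio of 1.5, and a median or mean level if within the SD between libraries. Counts that were 0 in every setting are among the 257, so this number does not measure how stable the calls were. Members called higher in wild-type CMP over LSK numbered 9 with DESeq2, 2 without the low-count filter, 2 with all 12 libraries in 1 fit, 0 with sex as a covariate and 0 with the replicate block, against 1 as reported, and 0 to 5 when single libraries were left out (5 without wild-type LSK 6). With DESeq2, 2 members were called lower in enhancer-null CMP. With single libraries left out the median of the members ran from 0.47 to 0.66 in the wild-type step, from 0.18 (without enhancer-null CMP 2) to 0.25 in the enhancer-null step and from −0.42 to −0.23 for the interaction. Among the members followed singly, signs turned for Mrpl19 in the wild-type step, to −0.03 with DESeq2 size factors, −0.03 with DESeq2, −0.04 without the filter, −0.04 with all 12 libraries and −0.19 to 0.22 with single libraries left out, and for Mrpl47 in enhancer-null CMP, to −0.00 without replicate 1. The cause was not tested. Fewer samples remain when a library is left out.

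CMP and LSK share replicate numbers. Correlations of same-numbered deviations from group means were 0.0732, −0.0419 and −0.0339 in the enhancer-null and 0.146, −0.112 and 0.041 in the wild-type mice, not all above 0.1. Taken against means of only 3 libraries, they cannot decide whether a number marks the same mouse, which the labels do not state. The sex read from Xist and Y-linked genes agreed for every shared number. Late neutrophil markers summed to 2079, 248 and 26.5 CPM in wild-type CMP 1, 6 and 8, and to 1329, 256 and 125 CPM in wild-type LSK 1, 6 and 8. With the replicate block Mrpl20 had an adjusted p of 0.0989 and the median of the wild-type step was 0.61. The comparisons between genotypes had no blocked fit, because the genotypes share 1 number.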
